A study of Mus musculus with 3 samples.

Results

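The interferon-stimulated genes are 35 mouse genes listed by symbol as targets of the type I or type II interferon response, out of 46095 gene symbols in the count table. The genes were listed by symbol and not by a measured value, but with earlier results of these data known. All 35 had a row, and all 35 were among the 18216 genes that passed the filter on low counts. They were measured by RNA-seq in prostate tumors of TRAMP mice, a C57BL/6 model in which an SV40 oncoprotein is expressed in the prostatic epithelium. The TRAMP library came from mice labelled wild-type for Phf8, and the libraries Phf8-KO1 and Phf8-KO2 came from TRAMP mice with Phf8 knockout, so that all 3 libraries carry the TRAMP transgene. Phf8 encodes a histone demethylase, and the knockout mice were bred from knockout females and TRAMP males. Each library is RNA pooled in equal mass from 3 mice at 37 weeks. The comparison asks how RNA levels differ between TRAMP tumors with and without Phf8.

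With 1 TRAMP pool and 2 Phf8-KO pools, the fit has 1 residual degree of freedom: its spread, moderated across genes, is that between Phf8-KO1 and Phf8-KO2, and the single TRAMP pool is taken to have the same spread. The methods give neither the lesions behind each pool nor whether any mouse contributed to both Phf8-KO pools, so p-values measure only the spread between these libraries. The counts of a library totalled 29954020 in TRAMP, 26747443 in Phf8-KO1 and 31876182 in Phf8-KO2. Levels are in CPM, counts scaled by TMM to libraries of equal size, and 3 counts, taken as the floor, correspond to 0.104, 0.113 and 0.0905 CPM. Phf8 itself was at 19.4 CPM in TRAMP, 15.0 in Phf8-KO1 and 15.9 in Phf8-KO2 (log2 fold change -0.33 ± 0.25 SE, the standard error of the fit, adjusted p = 0.44 by edgeR's quasi-likelihood test), and since the extent of the knockout allele is not stated, this count is no check of the genotype. The markers of prostate epithelium were all detected, with summed levels of 4633, 5413 and 5215 CPM.

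Interferons are secreted proteins that cells release on sensing foreign or misplaced nucleic acid or, in the case of interferon gamma, that T and NK cells release. Type I interferons activate Jak1 and Tyk2 and a complex with Stat2 and Irf9, which binds the interferon-stimulated response element (ISRE), whereas interferon gamma activates Jak1 and Jak2 and acts through the gamma-activated site (GAS). The target genes encode sensors, signalling factors that feed back on the pathway, and effectors that block viruses and intracellular microbes. They are expressed in both tumor cells and the immune cells that infiltrate a tumor.

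Most of the interferon-stimulated genes lay lower in the Phf8-KO tumors than in the TRAMP tumors, but none passed the test across all genes. The CPM was lower in both Phf8-KO pools in 26 of 35 members (74.3%), against 42.8% of all genes tested, and higher in both in 4 members (Oasl1, Trim25, Dtx3l and Ifi35), against 40.8% of all genes. Of these 4, Dtx3l and Ifi35 had a log2 fold change below 0 with upper quartile scaling. The other 5, Irf7, Oas1a, Oasl2, Isg15 and Bst2, had the TRAMP value between those of the Phf8-KO pools. Both pools were set against the same TRAMP library, so the shared direction counts that library in each ratio. The median log2 fold change of the members was -0.69, with a range of -2.42 to 0.54, and the median over all genes tested was 0.01. Taken singly against TRAMP, Phf8-KO1 gave a median log2 ratio of -0.75 over the members and Phf8-KO2 one of -0.66. Summed over the 35 genes, the level was 3456 CPM in TRAMP, 2162 in Phf8-KO1 and 2555 in Phf8-KO2. In bulk tissue, fewer cells of a type and less RNA per cell cannot be told apart.

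A gene was called where edgeR's quasi-likelihood test gave a Benjamini-Hochberg adjusted p under 0.05 and the fold change exceeded 2. By this rule 0 of 35 members were called lower, where 0.0384% of all genes were (7 of 18216), and 0 were called higher, where 0% of all genes were. The smallest adjusted p of a member was 0.101. Without adjustment, 16 members lay lower at a p under 0.05, against 12.2% of all genes, and 0 lay higher, against 14.9%. The 12 members with the smallest p were Gbp3, Mx1, Ifit3, Ifit1, Irgm1, Gbp7, Ifi44, Iigp1, Cmpk2, Parp14, Ifih1 and Xaf1, for which the unadjusted p ranged from 0.0014 to 0.023. A log2 fold change under -1 was found in 13 members, against 16.1% of all genes. DESeq2, the tool of the study, with the same thresholds, called 9 members lower (Ifit1, Ifit3, Mx1, Gbp2, Gbp3, Gbp7, Irgm1, Iigp1 and Ifi44), where it called 4.59% of the genes it gave an adjusted p, and 0 higher, where it called 9.42%. Without the filter on low counts, edgeR itself called 10 members lower (these 9 and Rsad2), so the calls turn on the filter as well as on the tool. The edgeR values given for single members are those with the filter, in which none was called.

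**Figure D1:**
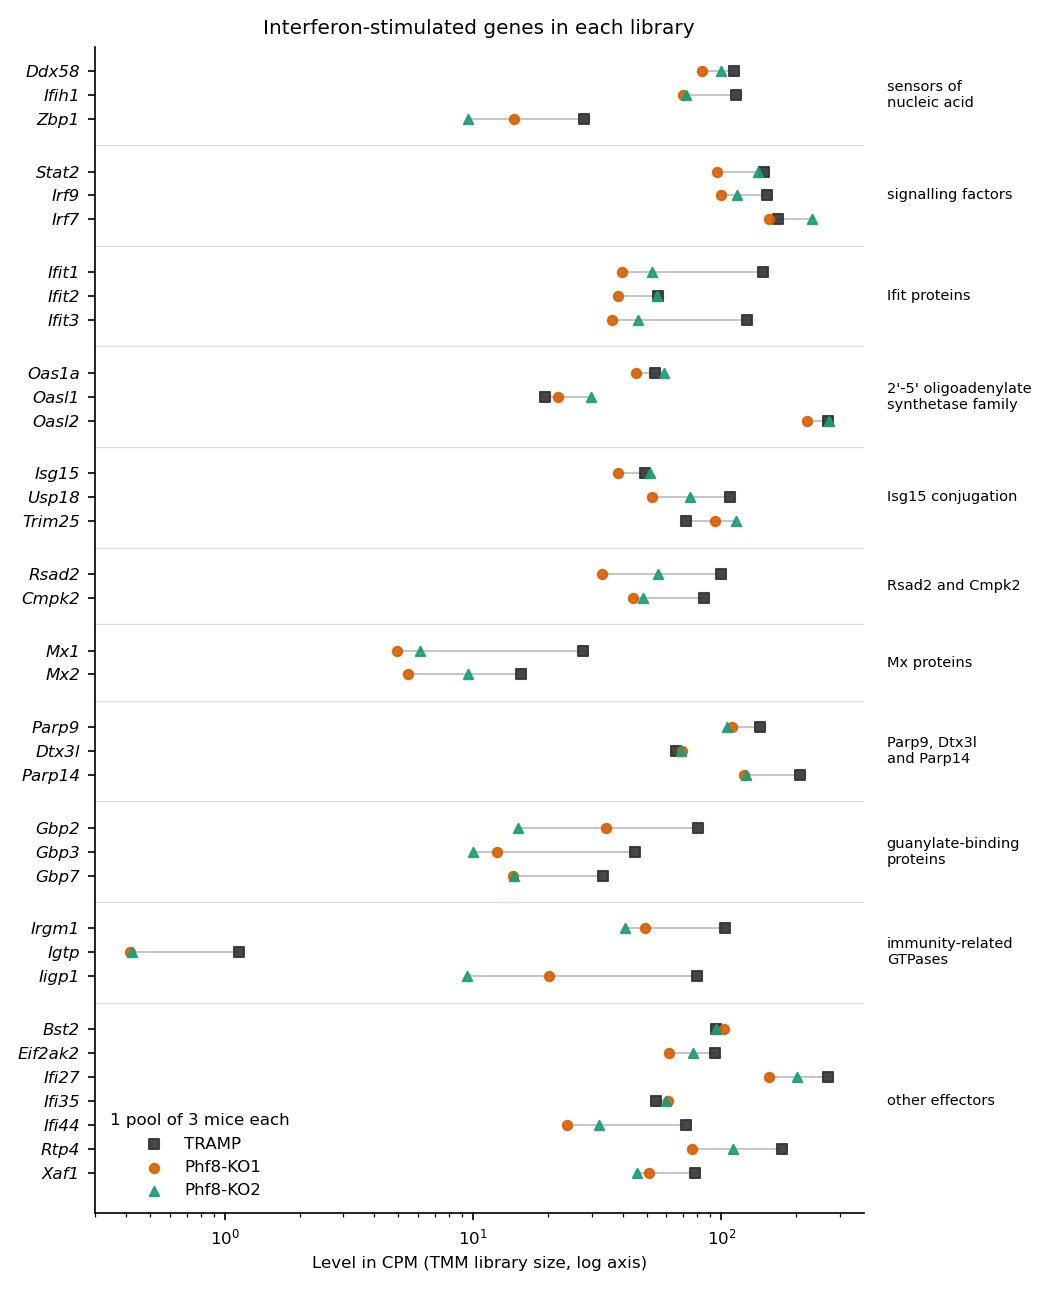
Level of each of the 35 interferon-stimulated genes in CPM (log axis) in the TRAMP, Phf8-KO1 and Phf8-KO2 libraries, 1 pool of 3 mice each, grouped by role. The TRAMP square lies to the right of both Phf8-KO symbols in 26 of 35 genes, with the largest fitted fold changes for Iigp1, Mx1 and Gbp3, and the symbols nearly coincide for Dtx3l, Bst2 and Ifi35.

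The promoters of the members were searched for the letters these factors bind. RefSeq promoter windows of GRCm38.p6, from 250 bases before to 50 after the transcription start, were found for 26 of the 35 genes, and the other 9 are Zbp1, Rtp4, Usp18, Mx1, Mx2, Parp9, Parp14, Iigp1 and Ifi27. The ISRE core was searched as GAAANNGAAA and the GAS as TTCNNNGAA, on both strands, with N for any base. Stretches of 150 bases before the start are shown for 4 genes that lay at least 2-fold lower in the Phf8-KO pools (Ifit1, Gbp2, Gbp3 and Irgm1) and for 2 that lay near the TRAMP level (Isg15 and Oas1a), 5′ to 3′ on the gene's strand, with every base of an ISRE core match in capitals. They lie at chr19:34640739-34640888 on the plus strand for Ifit1, chr3:142620513-142620662 on the plus strand for Gbp2, chr3:142559894-142560043 on the plus strand for Gbp3, chr11:48871421-48871570 on the minus strand for Irgm1, chr4:156200819-156200968 on the minus strand for Isg15 and chr5:120907526-120907675 on the minus strand for Oas1a.
Ifit1: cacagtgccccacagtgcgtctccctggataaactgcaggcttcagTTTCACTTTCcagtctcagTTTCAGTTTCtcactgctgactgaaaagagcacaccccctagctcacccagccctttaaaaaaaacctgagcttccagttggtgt
Gbp2: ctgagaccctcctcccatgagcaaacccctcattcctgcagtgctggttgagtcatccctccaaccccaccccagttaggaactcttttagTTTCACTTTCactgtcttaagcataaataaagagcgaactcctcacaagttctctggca
Gbp3: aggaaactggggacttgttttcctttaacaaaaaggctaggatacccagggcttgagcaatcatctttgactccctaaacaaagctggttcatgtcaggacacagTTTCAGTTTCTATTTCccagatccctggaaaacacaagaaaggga
Irgm1: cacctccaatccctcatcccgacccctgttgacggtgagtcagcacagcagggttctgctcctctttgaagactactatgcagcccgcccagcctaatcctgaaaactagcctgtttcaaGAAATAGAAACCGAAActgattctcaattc
Isg15: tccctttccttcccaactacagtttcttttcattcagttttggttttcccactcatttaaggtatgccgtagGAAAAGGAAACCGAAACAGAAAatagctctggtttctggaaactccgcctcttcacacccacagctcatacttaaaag
Oas1a: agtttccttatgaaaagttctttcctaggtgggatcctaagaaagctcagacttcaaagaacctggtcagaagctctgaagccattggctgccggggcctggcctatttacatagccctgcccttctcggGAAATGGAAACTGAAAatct

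In Ifit1 the matches are 2 separate copies, which start 104 and 85 bases before the transcription start, and Gbp2 has a single copy. The capitals of Gbp3, Irgm1, Isg15 and Oas1a are tandem repeats in which neighbouring matches overlap by sharing a GAAA block (or its complement), with 3 matches in Isg15 and 2 in each of the others. An ISRE core was present in 15 of the 26 member windows (57.7%) and in 3.99% of the 27025 genes with a window. A GAS was present in 7 of 26 (26.9%), against 9.55% of all genes, and either motif in 17 (65.4%), against 12.9%. A gene with more than 1 window was counted once. The stretches shown were taken only from windows with an ISRE core. Gbp3 has 2 windows, and its stretch is from the window with matches.

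The members with an ISRE core had a median log2 fold change of -1.17 (n = 15, range -2.00 to 0.05), and those without one had a median of -0.13 (n = 11, range -1.36 to 0.54). The ranges overlap widely. The GTPase genes Gbp2, Gbp3, Gbp7, Irgm1 and Igtp all have an ISRE core and lay from -2.00 to -1.21. These values are below the median of the members with an ISRE core, as are those of Ifit1 (-1.68) and Ifit3 (-1.62). Members without a window, among them Iigp1 (-2.42) and Mx1 (-2.32), enter neither median. Isg15, Oas1a and Bst2 have ISRE matches and lay within 0.13 of 0 on the log2 scale, whereas Ifi44 (-1.36) and Cmpk2 (-0.88) have neither motif in the window. For the GAS the medians were -0.25 with the motif (n = 7) and -0.69 without it (n = 19). These are descriptions of letters in a window, and binding was not measured.

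**Figure D2:**
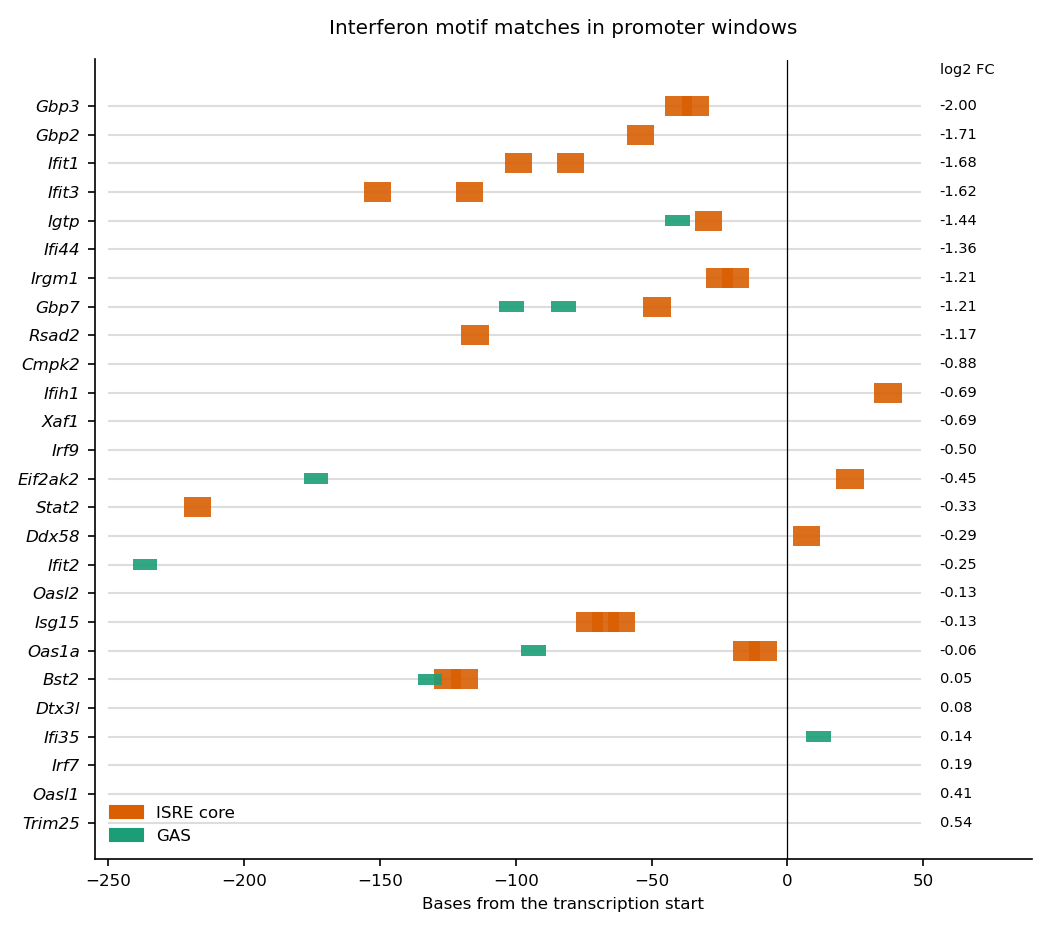
Matches to the ISRE core and the GAS in the promoter windows of the 26 members that have one, by distance in bases from the transcription start (0), ordered by log2 fold change of Phf8-KO minus TRAMP (column at the right, edgeR). ISRE matches stand in 15 of 26 rows, in 8 of the top 9 and also in Isg15, Oas1a and Bst2 near 0.

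The largest differences were in GTPases that act against microbes inside cells. The guanylate-binding proteins assemble on the vacuoles and membranes of intracellular microbes, and Gbp2, Gbp3 and Gbp7 lie in 1 cluster on chromosome 3 (GRCm38, 142530336 to 142638008). Gbp3 was at 45.0 CPM in TRAMP, 12.4 in Phf8-KO1 and 10.0 in Phf8-KO2, 4.01-fold higher in TRAMP (log2 fold change -2.00 ± 0.24 SE, adjusted p = 0.101 by edgeR, adjusted p = 3.3e-05 by DESeq2). Gbp7 was at 33.5, 14.4 and 14.6 CPM (log2 fold change -1.21 ± 0.21 SE, adjusted p = 0.102 by edgeR). Gbp2 was at 80.7, 34.2 and 15.2 CPM (log2 fold change -1.71 ± 0.52 SE, adjusted p = 0.15 by edgeR). All 3 lay lower in both Phf8-KO pools, and the larger standard error of Gbp2 goes with a difference of more than 2-fold between those pools.

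The immunity-related GTPases work with the guanylate-binding proteins at the parasite vacuole, where Iigp1 (Irga6) is an effector and Irgm1 and Igtp (Irgm3) regulate the effectors. Iigp1 was at 79.6 CPM in TRAMP, 20.3 in Phf8-KO1 and 9.48 in Phf8-KO2, the largest difference among the members, 5.36-fold (log2 fold change -2.42 ± 0.49 SE, adjusted p = 0.108 by edgeR, adjusted p = 0.00015 by DESeq2). The ratio of its counts, TRAMP over Phf8-KO, was 5.57 with a 95% interval of 5.15 to 6.04 for counting error only. Irgm1 (chromosome 11, 48865245 to 48871420) was at 104 CPM in TRAMP, 49.1 in Phf8-KO1 and 40.8 in Phf8-KO2 (log2 fold change -1.21 ± 0.20 SE, adjusted p = 0.101 by edgeR). Igtp was the least abundant member, with 33 counts in TRAMP, 11 in Phf8-KO1 and 14 in Phf8-KO2, a ratio of 2.73 with a counting interval of 1.58 to 4.79. As for the guanylate-binding proteins, the TRAMP value exceeded both Phf8-KO values in each of the 3 genes.

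The Mx proteins are dynamin-like GTPases that trap viral components, and both genes lie on chromosome 16 (97447035 to 97560901). Mx1 was at 27.8 CPM in TRAMP, 4.95 in Phf8-KO1 and 6.13 in Phf8-KO2, 5.01-fold higher in TRAMP (log2 fold change -2.32 ± 0.31 SE, adjusted p = 0.101 by edgeR, adjusted p = 6.2e-05 by DESeq2). C57BL/6 mice carry an Mx1 allele that makes no working protein, so the value is an RNA level only. Mx2 was at 15.6, 5.44 and 9.57 CPM (log2 fold change -1.06 ± 0.47 SE, adjusted p = 0.25 by edgeR). The Phf8-KO pools of Mx1 were close to each other, and those of Mx2 were further apart.

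Ifit1 binds RNA that lacks the host's cap modification and acts in complexes with the other Ifit proteins. The 3 genes differed by unequal amounts within 1 cluster on chromosome 19 (34550550 to 34650009). Ifit1 was at 147 CPM in TRAMP, 39.7 in Phf8-KO1 and 52.4 in Phf8-KO2 (log2 fold change -1.68 ± 0.24 SE, adjusted p = 0.101 by edgeR, adjusted p = 7.6e-05 by DESeq2). Ifit3 was at 127, 36.4 and 46.0 CPM (log2 fold change -1.62 ± 0.22 SE, adjusted p = 0.101 by edgeR, adjusted p = 9.7e-05 by DESeq2). Ifit2, which lies beside Ifit3, was at 55.4, 38.3 and 54.8 CPM (log2 fold change -0.25 ± 0.29 SE, adjusted p = 0.60 by edgeR). Ifit1 and Ifit3 were lower in both Phf8-KO pools by similar amounts, and Ifit2 was lower in Phf8-KO1 and at the TRAMP level in Phf8-KO2. Ifit1 overlaps Ifit1bl1, and Ifit3 has the near-identical copy Ifit3b, so reads may be split or shared within these pairs.

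Rsad2 (viperin), which makes a nucleotide that stops viral RNA synthesis, and Cmpk2, a mitochondrial nucleotide kinase, are neighbours on chromosome 12 (26442743 to 26479837). Cmpk2 was at 85.0 CPM in TRAMP, 43.9 in Phf8-KO1 and 48.3 in Phf8-KO2 (log2 fold change -0.88 ± 0.18 SE, adjusted p = 0.109 by edgeR). Rsad2 was at 99.4, 33.1 and 55.4 CPM (log2 fold change -1.17 ± 0.36 SE, adjusted p = 0.16 by edgeR). Both genes were lower in both pools, with the lower value in Phf8-KO1.

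Of the sensors of nucleic acid, Ifih1 (MDA5), a sensor of long double-stranded RNA, was at 115 CPM in TRAMP, 69.9 in Phf8-KO1 and 72.0 in Phf8-KO2 (log2 fold change -0.69 ± 0.17 SE, adjusted p = 0.127 by edgeR). Zbp1, which binds Z-form nucleic acid and can start necroptosis, was at 27.9, 14.6 and 9.54 CPM (log2 fold change -1.21 ± 0.35 SE). Ddx58 (RIG-I), a sensor of uncapped viral RNA, was at 112, 83.9 and 99.9 CPM (log2 fold change -0.29 ± 0.21 SE). The TRAMP level was the highest of the 3 libraries for each sensor, and the difference of Ddx58 was little larger than its standard error.

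The signalling factors differed less. Irf9, the DNA-binding subunit of the type I complex, was at 152 CPM in TRAMP, 99.3 in Phf8-KO1 and 116 in Phf8-KO2 (log2 fold change -0.50 ± 0.20 SE). Its partner Stat2 was at 149, 95.8 and 140 CPM (log2 fold change -0.33 ± 0.30 SE). Irf7, which drives the interferon alpha genes, was at 169, 155 and 232 CPM (log2 fold change 0.19 ± 0.32 SE). The 3 genes had their higher Phf8-KO value in Phf8-KO2, and for Irf7 that value exceeded the TRAMP value. None had an unadjusted p under 0.05, and the adjusted p ranged from 0.22 to 0.72 by edgeR.

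The oligoadenylate synthetase family lay close to the TRAMP level. Oas1a, an enzyme whose product activates RNase L, was at 54.1 CPM in TRAMP, 45.2 in Phf8-KO1 and 58.7 in Phf8-KO2 (log2 fold change -0.06 ± 0.24 SE, with a sign that turned with library size scaling). Oasl2 was at 270.3, 222 and 270.7 CPM (log2 fold change -0.13 ± 0.24 SE). Oasl1, which represses the translation of Irf7, was at 19.6, 22.0 and 29.9 CPM (log2 fold change 0.41 ± 0.29 SE). The TRAMP value lay inside the range of the Phf8-KO pools for Oas1a and Oasl2 and below both for Oasl1. Reads of Oas1a may be shared with its close copy Oas1g.

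Isg15 is a ubiquitin-like protein that is attached to other proteins, Trim25 is a ligase that acts in this attachment and on Ddx58, and Usp18 removes Isg15 and dampens the type I receptor. Isg15 was at 49.1 CPM in TRAMP, 38.2 in Phf8-KO1 and 51.6 in Phf8-KO2 (log2 fold change -0.13 ± 0.26 SE). Usp18 was at 109, 52.6 and 74.6 CPM (log2 fold change -0.77 ± 0.27 SE). Trim25 was at 71.9, 94.7 and 115 CPM, the largest value above 0 among the members (log2 fold change 0.54 ± 0.22 SE, adjusted p = 0.22 by edgeR). The 3 genes of the system thus lay on different sides of the TRAMP level, with Usp18 below it in both pools, Trim25 above it in both and Isg15 spanning it.

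Parp9 and Dtx3l form a ubiquitin ligase complex, share a promoter region and overlap in the annotation on chromosome 16, and Parp14, an ADP-ribosyltransferase, lies nearby. Parp14 was at 208 CPM in TRAMP, 124 in Phf8-KO1 and 125 in Phf8-KO2 (log2 fold change -0.74 ± 0.18 SE, adjusted p = 0.123 by edgeR). Parp9 was at 143, 110.3 and 105 CPM (log2 fold change -0.41 ± 0.18 SE). Dtx3l had 65.4, 69.3 and 68.5 CPM (a log2 fold change of 0.08 with a standard error of 0.18, or -0.07 with upper quartile scaling). Parp14 and Parp9 were lower in both pools, and the Dtx3l values of all 3 libraries were nearly equal. Without a stated strand setting, reads of Parp9 and Dtx3l in their overlap cannot be told apart.

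Of the 7 other effectors, 5 were lower in both pools. Ifi44 was at 71.9 CPM in TRAMP, 23.8 in Phf8-KO1 and 32.3 in Phf8-KO2 (log2 fold change -1.36 ± 0.26 SE, adjusted p = 0.105 by edgeR, adjusted p = 0.0066 by DESeq2). Xaf1, which antagonises an inhibitor of apoptosis, was at 78.3, 51.2 and 45.8 CPM (log2 fold change -0.69 ± 0.19 SE, adjusted p = 0.138 by edgeR). Rtp4 was at 176, 76.0 and 111 CPM (log2 fold change -0.91 ± 0.29 SE). These 3 had an unadjusted p under 0.05, and their Phf8-KO pools did not reach the TRAMP level.

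Ifi27, a mitochondrial protein, was at 269 CPM in TRAMP, 156 in Phf8-KO1 and 202 in Phf8-KO2 (log2 fold change -0.58 ± 0.25 SE). Eif2ak2 (PKR), the kinase that stops translation on double-stranded RNA, was at 94.7, 61.8 and 76.6 CPM (log2 fold change -0.45 ± 0.22 SE). Both were lower in both pools without an unadjusted p under 0.05. Bst2 (tetherin), which holds budding virus at the cell surface, was at 95.5, 103 and 95.2 CPM (log2 fold change 0.05 ± 0.18 SE), and Ifi35 was at 54.8, 60.9 and 59.7 CPM (log2 fold change 0.14 ± 0.18 SE). Bst2 and Ifi35 differed from TRAMP by less than their standard errors, and both had a value below 0 with upper quartile scaling (-0.10 and -0.01). In the annotation Ifi27 lies within Ifi27l2a (99.9, 48.2 and 23.8 CPM), so reads of these 2 genes may not be separable.

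**Figure D3:**
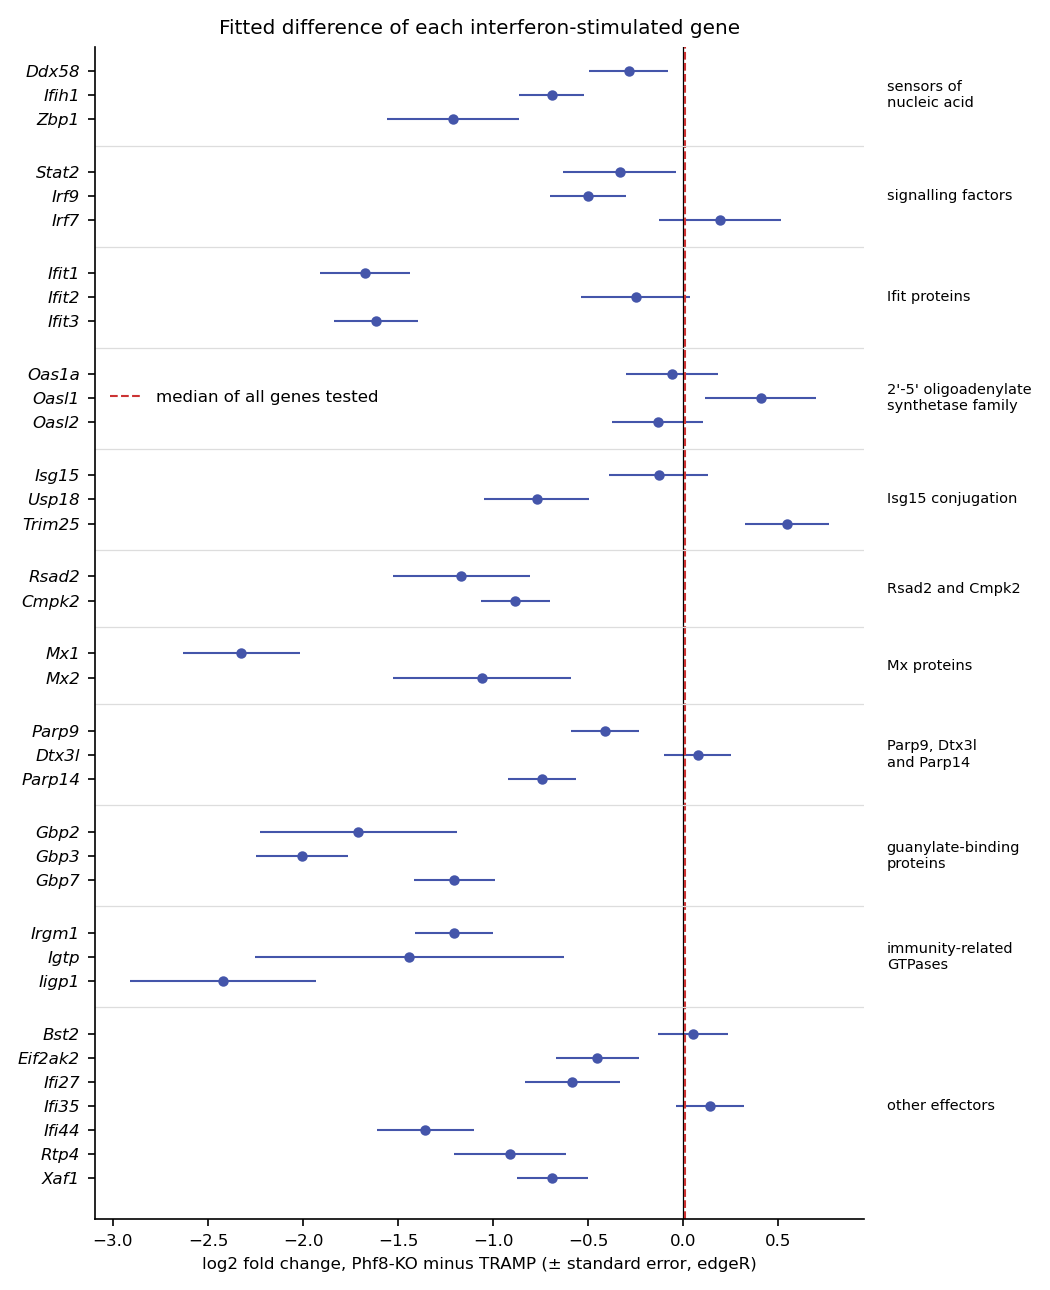
Fitted log2 fold change of each member, Phf8-KO minus TRAMP, with its standard error from edgeR's quasi-likelihood fit, grouped by role, and the median of all genes tested (0.01) as a dashed line. The guanylate-binding proteins, the immunity-related GTPases, the Mx proteins, Ifit1, Ifit3 and Ifi44 lie between -2.42 and -1.06, and the oligoadenylate synthetase family lies between -0.13 and 0.41.

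Per kilobase of annotated exon, which allows genes to be compared within a library, the order of the members also differed between the groups. In TRAMP the highest levels were those of Ifi27 (183 CPM per kb), Bst2 (106), Rtp4 (82.7), Ifit3 (72.5), Isg15 (65.0), Ifit1 (55.4) and Irf7 (44.8). In the mean of the Phf8-KO pools the levels were 122 CPM per kb for Ifi27, 110 for Bst2, 59.4 for Isg15, 51.2 for Irf7, 44.0 for Rtp4, 23.6 for Ifit3 and 17.3 for Ifit1. Isg15 and Irf7, below Ifit3 in TRAMP, were above it in both Phf8-KO pools. Exon lengths are of the GENCODE annotation and need not be those of the transcripts present in these tumors.

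Between Phf8-KO1 and Phf8-KO2 the members differed in opposite directions. Of the 6 GTPases of the guanylate-binding and immunity-related families, 2 were higher in Phf8-KO2 than in Phf8-KO1, with a median log2 ratio of Phf8-KO2 to Phf8-KO1 of -0.29 and summed levels of 344 CPM in TRAMP, 131 in Phf8-KO1 and 90.5 in Phf8-KO2. Of the other 29 members, 23 were higher in Phf8-KO2, with a median log2 ratio of 0.31 and summed levels of 3112, 2031 and 2464 CPM. Over all genes tested, 49.3% were higher in Phf8-KO2. Within the 6, Gbp2 (-1.17) and Iigp1 (-1.09) carried most of the difference, Gbp3 (-0.31) and Irgm1 (-0.27) lay lower by less, and Gbp7 (0.01) and Igtp (0.03) were nearly equal in the pools. Mx1 (0.30) and Mx2 (0.81), GTPases of another family, are among the 23. Zbp1 (-0.61) had the lowest ratio of the 29, below those of Gbp3 and Irgm1. There is 1 library on each side of this comparison and no test, and the grouping was made after the values were seen.

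Markers of immune cells were also lower in the Phf8-KO pools. Of 23 markers of leukocytes, macrophages, T and NK cells, B and plasma cells and plasmacytoid dendritic cells, 22 were lower in both pools and 0 higher in both, with a median log2 fold change of -1.89 and summed levels of 832 CPM in TRAMP, 296 in Phf8-KO1 and 124 in Phf8-KO2. The exception was Laptm5, with 5, 2 and 26 counts. Ptprc (CD45), the marker of all leukocytes, was at 49.5 CPM in TRAMP, 17.0 in Phf8-KO1 and 9.02 in Phf8-KO2. The macrophage markers summed to 351, 181 and 79.4 CPM (6 of 6 lower in both pools), and the T and NK cell markers to 54.1, 21.1 and 12.6 CPM (7 of 7). The B and plasma cell markers summed to 325, 55.5 and 13.6 CPM, of which Jchain made up 321, 54.7 and 13.2 CPM. Of the defining markers only Ncr1 in Phf8-KO1 and Ccr9 in Phf8-KO2 were at 0 counts. By edgeR no immune marker passed the test (smallest adjusted p 0.105), and DESeq2 called 7 of the 23 lower (30.4%), against 4.10% of all genes tested. It gave 5 of the 23 no adjusted p.

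The immune marker sum and the sum of the 6 GTPases had the same order across the 3 libraries. The sum of the other 29 members had another, with Phf8-KO2 above Phf8-KO1. Because the 6 were set apart after the pool values were seen, nothing is concluded from these orders. The part of immune cells in the lower levels of the members was not tested. Other tissues also differed between the pools: skeletal muscle markers summed to 1052, 68.2 and 4.50 CPM, adipocyte markers to 630, 18.8 and 30.7 CPM, and smooth muscle markers to 373, 3415 and 245 CPM in TRAMP, Phf8-KO1 and Phf8-KO2. Fibroblast markers summed to 1567, 1146 and 579.6 CPM, with Col1a1 at 8.20, 163 and 97.1 CPM and Dcn at 1474, 639.5 and 215 CPM. Endothelial markers summed to 75.1, 45.4 and 86.0 CPM, with Vwf at 34.9, 8.03 and 6.10 CPM and Cdh5 at 5.09, 12.1 and 37.7 CPM. All 4 skeletal muscle and all 4 adipocyte markers were lower in both pools, and the TRAMP value of all 4 smooth muscle markers lay between the pools. The fibroblast and the endothelial list each had 1 marker lower and 2 higher in both pools. The part of these tissues was not tested either.

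**Figure D4:**
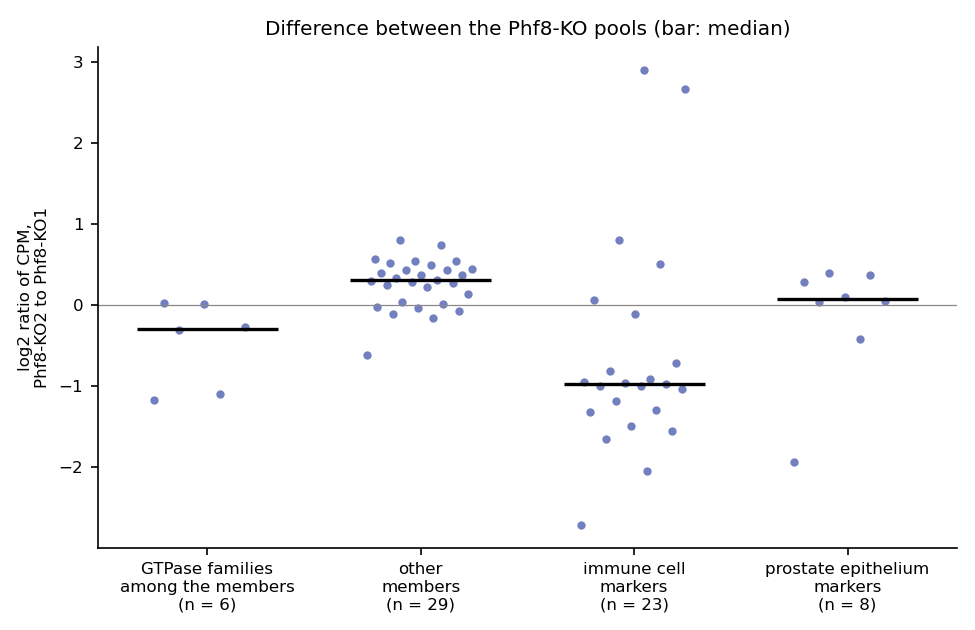
Log2 ratio of CPM between the Phf8-KO2 and Phf8-KO1 libraries (prior count of 1) for the 6 guanylate-binding and immunity-related GTPases and the other 29 members, for 23 immune cell markers and for 8 markers of prostate epithelium, with the median of each as a bar. The medians of these GTPases (-0.29) and the immune markers (-0.97) lie below 0, and that of the other members (0.31) lies above 0. The members were split after their values were seen.

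Upstream of the members, the interferon genes were at or near 0. Of 21 interferon genes, 15 had 0 counts in every library. Interferon beta (Ifnb1) had 1 count in each library, interferon gamma (Ifng) had 5, 6 and 1, and Ifna13, Ifnl2 and Ifnz had at most 2 in any library. With a floor of 0.0905 to 0.113 CPM, no difference in these RNAs was detectable at this depth. The only ligand gene tested was Ifne, an epithelial type I interferon, with 30 counts in TRAMP, 13 in Phf8-KO1 and 70 in Phf8-KO2 (log2 fold change 0.33 ± 1.14 SE), in which the Phf8-KO pools lay on both sides of TRAMP.

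The 6 receptor genes had a median log2 fold change of -0.13, and none had an unadjusted p under 0.05. The type I receptor chain Ifnar1 was at 48.2 CPM in TRAMP, 45.7 in Phf8-KO1 and 44.9 in Phf8-KO2, and Ifnar2 was at 50.4, 44.4 and 28.7 CPM. The interferon gamma receptor chain Ifngr1 was at 101, 87.1 and 93.7 CPM, and Ifngr2 was at 89.6, 114.6 and 114.7 CPM. The receptor chains for interferon lambda, Ifnlr1 and Il10rb, were at 22.6, 21.0 and 29.7 CPM and at 49.1, 38.7 and 42.4 CPM. All receptor chains were thus detected in each library, and only Ifngr2 lay above TRAMP in both pools.

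Among 8 kinases and factors the median log2 fold change was -0.03. Irf1, a target and factor of interferon gamma signalling, was at 125, 78.6 and 81.5 CPM (log2 fold change -0.64 ± 0.17 SE, adjusted p = 0.138 by edgeR). Irf1 was lower in both pools, as were Stat2 and Irf9 among the members. Tyk2, a kinase of the type I receptor, was at 28.5, 48.6 and 53.2 CPM (log2 fold change 0.84 ± 0.20 SE, adjusted p = 0.12 by edgeR). Jak1 was at 156, 131 and 155 CPM and Jak2 at 106, 118 and 103 CPM, with the Phf8-KO pools of each more than 10 CPM apart. Irf3, which is activated by the sensors, was at 80.4, 91.4 and 90.6 CPM, Irf8, a factor of myeloid cells, at 13.0, 15.6 and 12.5 CPM, and Irf5 at 5.05, 5.63 and 1.06 CPM.

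The 12 other sensors and adaptors had a median log2 fold change of 0.02 and lay on both sides of TRAMP. Tlr7, an endosomal RNA receptor of plasmacytoid dendritic cells, B cells and macrophages, was at 6.71 CPM in TRAMP, 1.39 in Phf8-KO1 and 0.543 in Phf8-KO2 (log2 fold change -2.80 ± 0.75 SE). The DNA sensor gene Ifi204 was at 15.3, 3.23 and 0.996 CPM (log2 fold change -2.86 ± 0.79 SE), and Aim2 was at 5.43, 2.03 and 1.42 CPM (log2 fold change -1.66 ± 0.55 SE). Tmem173 (STING) was at 133, 83.4 and 57.2 CPM (log2 fold change -0.92 ± 0.29 SE), and the kinase gene Tbk1 at 80.3, 51.5 and 59.0 CPM (log2 fold change -0.54 ± 0.19 SE). In contrast, Ticam1 (TRIF) was at 26.0, 44.3 and 61.0 CPM (log2 fold change 1.02 ± 0.29 SE) and Mb21d1 (cGAS) at 11.4, 19.8 and 21.2 CPM (log2 fold change 0.85 ± 0.25 SE). The feedback inhibitor Socs1 had 9, 32 and 44 counts (log2 fold change 2.01 ± 0.84 SE). Over the 30 pathway genes tested of 50 listed, 13 were lower (43.3%) and 7 higher (23.3%) in both pools, against 42.8% and 40.8% of all genes, and the median log2 fold change was -0.02. By edgeR 0 were called, with 5 lower (16.7%) and 3 higher (10.0%) before adjustment (p under 0.05), against 12.2% and 14.9% of all genes. DESeq2 called 2 lower (6.67%), Tlr7 and Ifi204, against 4.10% of all genes tested. The share lower in both pools is thus near that of all genes, and the share higher in both pools is below that of all genes.

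Other targets of interferon that are not among the members lay mostly lower too. Of 57 tested, 41 were lower (71.9%) and 11 higher (19.3%) in both pools, against 42.8% and 40.8% of all genes, with a median log2 fold change of -0.80. By edgeR 0 were called, with 30 lower (52.6%) and 4 higher (7.02%) before adjustment (p under 0.05), against 12.2% and 14.9% of all genes. DESeq2 called 22 lower (38.6%), against 4.10% of all genes tested. It called 1 higher, where it called 9.42% of the genes it gave an adjusted p. Families were grouped among them after the values were seen. The relatives of the GTPase, Ifit and Oas members followed those members in the direction of the median. The Schlafen, chemokine and Ifitm genes have no such family among the members. The 11 other guanylate-binding protein and immunity-related GTPase genes were lower in both pools in 11 of 11 cases, with summed levels of 222 CPM in TRAMP, 68.7 in Phf8-KO1 and 53.1 in Phf8-KO2 and a median of -2.47 on the log2 scale. Gbp6, for example, was at 54.4, 14.0 and 12.3 CPM, and Tgtp2, whose reads may be shared with its copy Tgtp1, at 26.8, 3.79 and 1.75 CPM. None of the 11 was higher in Phf8-KO2 than in Phf8-KO1.

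The 3 relatives of the Ifit members had a median log2 fold change of -1.56 and were lower in both pools. Of these, Ifit1bl1 and Ifit3b may share reads with the members Ifit1 and Ifit3. The 5 relatives of Oas1a had a median of -0.10, with 3 lower and 1 higher in both pools. Among them, the Phf8-KO pools lay far apart for Oas2 (72.0 CPM in TRAMP, 12.3 in Phf8-KO1 and 70.9 in Phf8-KO2) and Oas3 (9.73, 9.68 and 32.0 CPM). The 3 Ifitm genes had a median of 0.02. The chemokine genes Cxcl9 (35.9, 10.4 and 4.53 CPM) and Cxcl10 (39.2, 15.3 and 13.9 CPM), which attract T cells, and Cxcl11 were lower in both pools, as were 4 of 4 Schlafen genes, with a median of -1.79. The target that DESeq2 called higher was Lgals3bp, a secreted glycoprotein, at 373 CPM in TRAMP, 962 in Phf8-KO1 and 1199 in Phf8-KO2 (log2 fold change 1.53 ± 0.34 SE, adjusted p = 0.11 by edgeR).

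**Figure D5:**
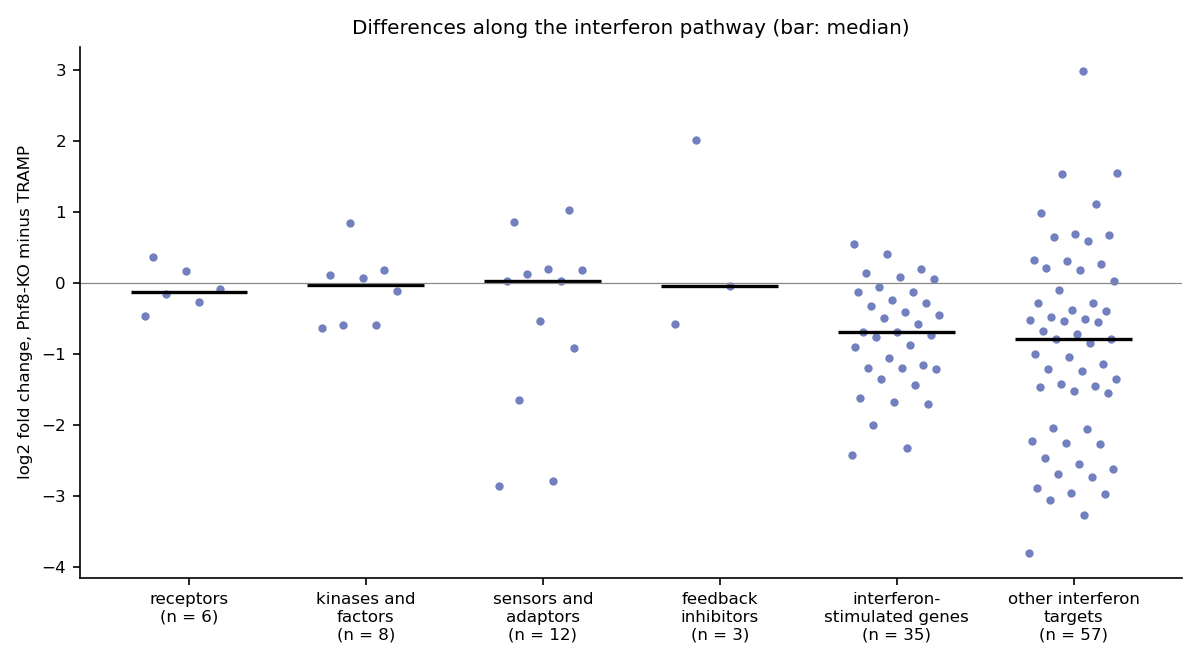
Log2 fold change of Phf8-KO minus TRAMP (edgeR) for the genes of each step of the interferon pathway that were tested, with the median of each step as a bar; the 1 ligand gene tested, Ifne, is not plotted. The medians of receptors (-0.13), kinases and factors (-0.03) and sensors and adaptors (0.02) lie near 0, those of the interferon-stimulated genes (-0.69) and the other interferon targets (-0.80) below it. Single sensors and adaptors range from -2.86 to 1.02. Factors and sensors that are members are plotted only with the interferon-stimulated genes.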

How the data were processed

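The deposited values are raw counts per gene symbol: after filtering, the authors aligned reads to GRCm38 using HISAT2, and HTSeq gave the counts. Tool versions, annotation release and strand setting are not given in the sources used here, and 13 members overlap another RefSeq gene, whose reads may not be separable. Groups came from the sample labels. The counts were fitted in R 4.3.3 by edgeR 4.0.16 (TMM scaling, filterByExpr by group, quasi-likelihood test, Benjamini-Hochberg adjustment over 18216 genes), with DESeq2 1.42.0 and limma 3.58.1 (voom) as alternatives. The study's own tool was DESeq2. Calls needed an adjusted p below 0.05 together with a fold change above 2 or below 0.5. The standard error is the log2 fold change divided by the square root of F. Ratios between single libraries used a prior count of 1. Intervals (95%, exact binomial) and floors (3 counts) cover counting error only. The members and lists were chosen with earlier results of these data known, so no test over a list was made. All 35 members are named, with an adjusted p, and the range of p, for the 12 with the smallest p, together with every receptor, kinase and factor tested, except 1 factor that is not reported here, and up to 8 other pathway genes by smallest p. The families of other interferon targets, and the targets named from them, were chosen after their values were seen. Coordinates and promoters are RefSeq's for GRCm38 (coordinates for all 35 members).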

Additional observations from a re-analysis of the deposited data

How the results depend on the processing

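No member was called by edgeR with RLE, upper quartile or library size scaling, with a mean CPM of at least 1, without the legacy setting, or by limma-voom. Without a filter on low counts edgeR called 10 members lower (the 9 of DESeq2 and Rsad2), 2 pathway genes lower and 1 higher, and 21 other targets lower and 1 higher, among 856 genes lower and 1430 higher in all. DESeq2 called 9 members, 2 pathway genes and 22 other targets lower and 1 other target higher, among 747 genes lower and 1533 higher. In all genes, library size scaling gave 19 lower and 1 higher, and a mean CPM of at least 1 and limma-voom gave 0 lower. The cause of these differences was not tested.

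Upper quartile scaling moved the median of all genes to -0.14, and gave -0.84 for the members, -0.17 for the pathway, -0.96 for other targets and 2 members higher in both pools; library size scaling gave -0.61, 0.065 and -0.72. The pathway median was -0.12 with a mean CPM of at least 1. Signs turned with upper quartile scaling for Dtx3l (-0.073), Bst2 (-0.10), Ifi35 (-0.0091), Jak2 (-0.086), Irf8 (-0.034), Dhx58 (-0.13), Tlr3 (-0.027) and Myd88 (-0.13), with library size scaling for Oas1a (0.022) and Ptpn2 (0.030), and with a mean CPM of at least 1 for Dhx58 (-0.028) and Myd88 (-0.022).

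Leaving out either Phf8-KO pool leaves no residual degrees of freedom and gives values with no test. The members' median was then -0.66 to -0.75, the pathway's -0.046 to -0.15 and that of other targets -0.90 to -0.98, with 27 to 30 members lower and 5 to 8 higher than TRAMP (8 without Phf8-KO1, against 4 with both pools). No paired analysis was possible because TRAMP has 1 library, whose label carries no replicate number, and at least 2 pairs are needed. Igtp, at 33 counts or fewer, did not pass a mean CPM of at least 1, and for the ligand genes other than Ifne the depth allows no comparison.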
